A study of Homo sapiens with 14 samples.

Results

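The data set followed here consists of 7 genes that mature prostate epithelium uses for its secretions and its cell surface: ACP3 (called ACPP on the array), RLN1, FOLH1, TMEFF2, STEAP1 (called STEAP there), STEAP2 and MSMB. They were chosen by name, with earlier results of these data known. Each was measured, by 9 probes in all out of 27648, among 14532 named genes. FOLH1 and STEAP2 had 2 probes each, and the other genes had 1. All RNA came from LNCaP, an established human cell line from a prostate cancer metastasis that responds to androgens. Every culture, controls included, grew for 36 h and was then deprived of steroids for 48 h. For the next 24 h cells received 1 nM R1881 (a synthetic androgen), 25 µg/ml cycloheximide (CHX, which blocks protein synthesis on ribosomes), both agents added at the same time, or neither. Each treatment was set against untreated control cells on 4 two-colour arrays, which hold 2 separate cultures with the dyes Cy3 and Cy5 in either orientation. CHX plus R1881 was also set directly against CHX on 2 arrays (the direct arrays), which are a dye swap. Their titles give no experiment number, and they were taken as experiment 1.

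Values are log ratios, taken as log2 because the base is not stated, of treated over control RNA. If the base were 10 or e, each printed value would be larger by a constant factor, with signs and adjusted p-values as given. The labels do not name the numerator, so the direction is likely, not certain. As deposited, 32 of 35 androgen-induced genes lay below 0 with R1881 and 38 of 48 immediate-early transcripts lay below 0 with CHX, so every value was multiplied by −1. The arrays give no levels, so a gene cannot be called abundant or scarce, nor can the cell line be checked for the presence of its markers. A value near 0 means that a transcript moved like the typical transcript of its array. Fewer cells that carry a transcript and less of it per cell cannot be told apart. Array SDs over probes were 0.182 to 0.254 with R1881 alone and 0.571 to 0.617 where CHX was set against control. Over all probes, the 2 dye orientations of an experiment correlated at 0.134 and 0.216 with R1881 alone. Where CHX was set against control they correlated at 0.788 to 0.893, and on the direct arrays at −0.043.

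The prostate gland secretes proteins into seminal fluid and displays a set of surface proteins that its luminal epithelial cells make under the control of the androgen receptor. ACP3 encodes prostatic acid phosphatase and MSMB encodes beta-microseminoprotein, both major proteins of seminal fluid, while RLN1 encodes a relaxin, a peptide hormone of the insulin family. FOLH1 encodes prostate-specific membrane antigen, a surface carboxypeptidase that is used as an imaging and therapy target. STEAP1 and STEAP2 are membrane proteins of a metalloreductase family, and TMEFF2 is a transmembrane protein with an EGF-like domain and follistatin-like domains. Among these genes, FOLH1 is known as an androgen-repressed transcript.

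With CHX alone, 6 of the 7 genes fell and none rose. RLN1 fell by 3.84 on the log2 scale (14.3-fold), TMEFF2 fell by 3.01 (8.08-fold), ACP3 fell by 2.89 (7.42-fold), STEAP1 fell by 2.21 (4.62-fold), STEAP2 fell by 1.38 (2.61-fold) and FOLH1 fell by 0.55 (1.46-fold). MSMB had −0.02. A fall was called where limma gave an adjusted p (Benjamini-Hochberg, all genes) below 0.05, which held for 17.5% of all 14532 genes. A called rise held for 20.5% of all genes. A called fall of more than 1 log2 unit was met by 5 of the 7 genes and by 3.52% of all genes. The median of the 7 genes was −2.21 and that of all genes 0.00.

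**Figure D1:**
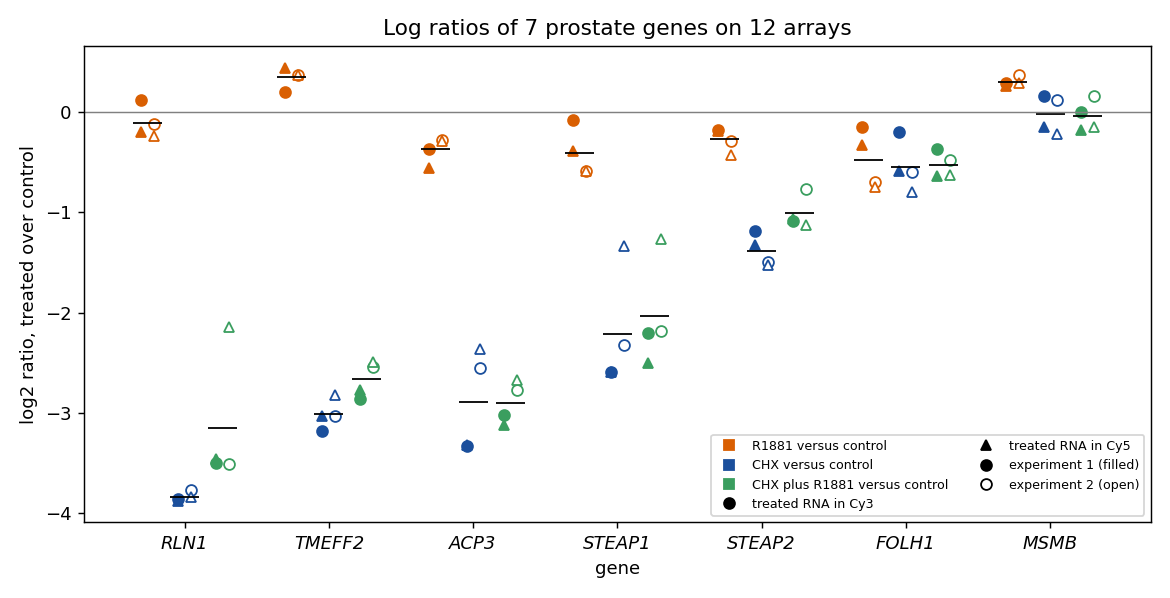
Log2 ratio of treated over control RNA (vertical axis) for each of the 7 genes (horizontal axis) on each of the 12 arrays with a control channel. Colours give the treatment, circles and triangles the dye of the treated RNA, filled and open symbols experiments 1 and 2, and bars the mean of 4 arrays. With CHX all arrays of RLN1, TMEFF2, ACP3, STEAP1, STEAP2 and FOLH1 lie below 0, and those of MSMB lie on both sides.

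Among the secreted products, RLN1 had −3.86 and −3.87 in the 2 orientations of experiment 1 and −3.77 and −3.84 in those of experiment 2 with CHX. All 4 arrays were close together, and the mean of −3.84 ± 0.04 (SD, n = 2 experiments; limma adjusted p = 0.000114) was the 2nd lowest of 14532 genes. ACP3 had −3.33 and −3.32 in experiment 1 and −2.56 and −2.36 in experiment 2. The dye orientations of ACP3 agreed closely within an experiment, while the experiments differed by 0.87, and the mean was −2.89 ± 0.61 (adjusted p = 0.000381). MSMB, the third secreted product, had 0.16 and −0.15 in experiment 1 and 0.12 and −0.22 in experiment 2. In MSMB the sign followed the dye and not the experiment, and its mean of −0.02 had a 95% interval from −0.17 to 0.12 (adjusted p = 0.810).

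Among the surface proteins, TMEFF2 had −3.18 and −3.03 in experiment 1 and −3.03 and −2.82 in experiment 2 with CHX. All 4 arrays were close together, with a mean of −3.01 ± 0.13 (limma adjusted p = 6.43e-05), the 10th lowest of all genes. STEAP1 had −2.60 and −2.59 in experiment 1, and −2.32 and −1.33 in experiment 2. Its array with the treated RNA in Cy5 of experiment 2 lay above the other 3, and the mean was −2.21 ± 0.54 (adjusted p = 0.00115). STEAP2 had −1.19 and −1.33 in experiment 1 and −1.49 and −1.53 in experiment 2, a mean of −1.38 ± 0.18 (adjusted p = 0.000268). Its 2 probes had −1.41 and −1.36, so both gave about the same value. FOLH1 had −0.20 and −0.59 in experiment 1 and −0.60 and −0.80 in experiment 2, with a mean of −0.55 ± 0.22 (adjusted p = 0.0233). Both FOLH1 probes fell when fitted singly, with −0.51 and −0.58. The call of FOLH1 was lost after quantile normalization (−0.44, adjusted p = 0.329), from the arrays with the treated RNA in Cy3 alone (−0.40, adjusted p = 0.0977) and without experiment 2 of CHX (−0.39, adjusted p = 0.169). FOLH1 has a near-identical copy in the human genome, FOLH1B, and the probe sequences are not given, so the share of each in the signal is uncertain.

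**Figure D2:**
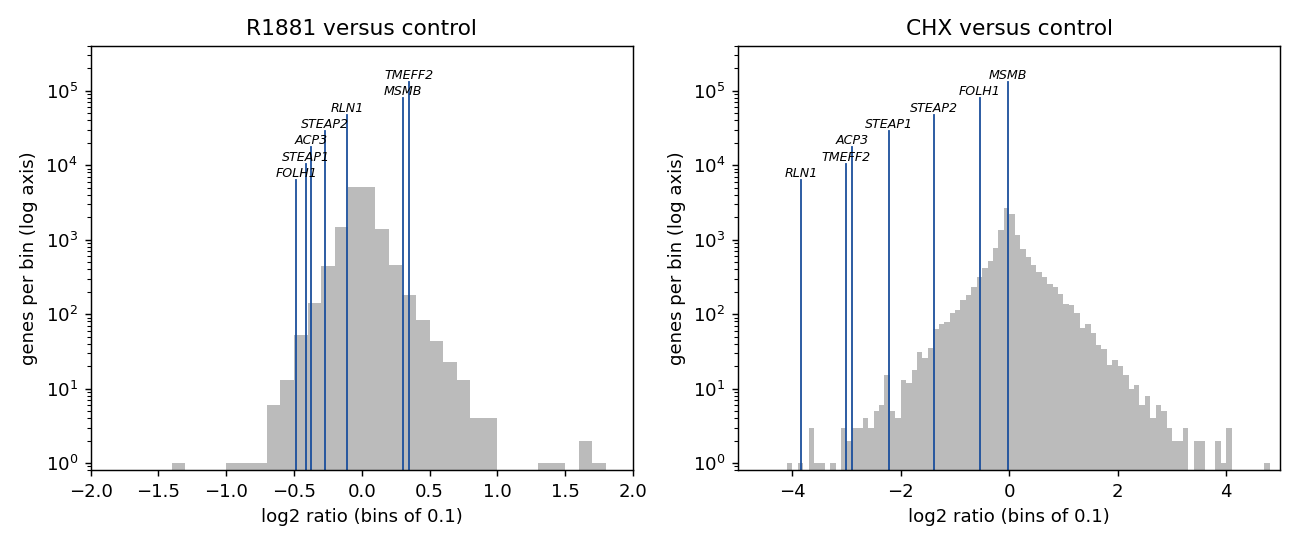
Number of genes per bin of 0.1 (log vertical axis) against the log2 ratio for R1881 and for CHX versus control, with a line at each of the 7 genes. The horizontal axes differ in range. With R1881 the 7 genes lie between −0.48 and 0.35, and with CHX between −3.84 and −0.02.

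RLN1 lies next to its close relative RLN2 on chromosome 9 in RefSeq gene order (GRCh38.p14). RLN2, which encodes the main circulating relaxin, had −2.57, −2.65, −2.57 and −2.65 on the 4 CHX arrays and fell by 2.61 (limma adjusted p = 6.43e-05). How far the probe of each relaxin gene also binds the other's transcript is not known, so both values are uncertain as measures of single genes. PLGRKT, on the other side of RLN1, fell by 1.73 (adjusted p = 0.000168), whereas the placental peptide gene INSL4, beyond RLN2, had 0.05 (adjusted p = 0.577). STEAP1 and STEAP2 are also neighbours, on chromosome 7, with no other protein-coding gene between them in that order, and both fell.

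Promoter sequence, given as the 250 bases before the annotated start, was in the RefSeq table for 5 of the 7 genes: ACP3, RLN1, TMEFF2, STEAP1 and STEAP2. The 3 genes with the deepest falls are printed below with RLN2, the near-copy of RLN1, so that the relaxin promoters can be set side by side. Capitals mark matches, on either strand, to the androgen response hexamer TGTTCT, the forkhead (FOXA) motif TGTTTAC, the TATA box TATAAA, the CCAAT box CCAAT or the GC box GGGCGG. No matches overlapped in these windows.
RLN1 (GRCh38.p14, chr9:5339877-5340126, minus strand): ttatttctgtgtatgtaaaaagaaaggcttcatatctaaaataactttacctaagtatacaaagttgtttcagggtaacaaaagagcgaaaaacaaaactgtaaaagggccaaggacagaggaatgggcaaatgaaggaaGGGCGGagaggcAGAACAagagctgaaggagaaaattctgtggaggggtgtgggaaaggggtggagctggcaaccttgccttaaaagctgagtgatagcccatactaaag
RLN2 (GRCh38.p14, chr9:5304717-5304966, minus strand): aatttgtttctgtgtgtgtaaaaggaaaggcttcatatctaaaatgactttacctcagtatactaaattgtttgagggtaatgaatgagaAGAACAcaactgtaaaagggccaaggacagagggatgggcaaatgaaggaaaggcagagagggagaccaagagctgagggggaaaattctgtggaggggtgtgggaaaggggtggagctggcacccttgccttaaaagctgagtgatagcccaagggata
TMEFF2 (GRCh38.p14, chr2:192194934-192195183, minus strand): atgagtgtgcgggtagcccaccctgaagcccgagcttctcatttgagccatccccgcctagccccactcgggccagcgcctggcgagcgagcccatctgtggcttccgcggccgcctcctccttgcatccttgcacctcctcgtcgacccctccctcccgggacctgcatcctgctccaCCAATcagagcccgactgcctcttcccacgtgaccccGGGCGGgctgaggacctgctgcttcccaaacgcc
ACP3 (GRCh38.p14, chr3:132317157-132317406, plus strand): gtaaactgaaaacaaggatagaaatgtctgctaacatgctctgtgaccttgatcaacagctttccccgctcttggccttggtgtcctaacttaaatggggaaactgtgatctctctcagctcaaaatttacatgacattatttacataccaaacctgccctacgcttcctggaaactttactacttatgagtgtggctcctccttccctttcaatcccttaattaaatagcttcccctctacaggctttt

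In a global alignment, 221 of 247 aligned bases (89.5%) of the RLN1 and RLN2 windows were identical. RLN1 holds a GC box starting 110 bases and the androgen response hexamer starting 98 bases before the start, and RLN2 holds the hexamer at another place, 160 bases before it. TMEFF2 holds a CCAAT box and a GC box, STEAP2 a GC box, and ACP3 and STEAP1 none of the motifs searched. Of the 35116 promoters in the table, 12.4% hold the hexamer, 2.98% the forkhead motif, 10.7% the TATA box, 32.0% the CCAAT box and 42.6% the GC box. The whole palindromic androgen response element, searched as an exact consensus, was in 1 of them and in none of these 5. Base composition split the 5 genes, with a GC content of 42.0% in both RLN1 and ACP3 and of 67.6% in TMEFF2, 64.4% in STEAP1 and 69.6% in STEAP2. All 5 fell with CHX, and MSMB, which did not, had no promoter in the table. Base composition could therefore not be set against the fall.

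With R1881 alone the 7 genes had values from −0.48 to 0.35. RLN1, ACP3, TMEFF2, STEAP1 and STEAP2 lay nearer to 0 than with CHX, FOLH1 had −0.48 against −0.55 with CHX, and MSMB lay further from 0 with R1881 (0.30) than with CHX (−0.02). None of the 7 passed the test over all genes (limma, Benjamini-Hochberg), where 0.00688% of all genes, the single gene TMPRSS2, did. KLK3 (prostate-specific antigen), from the androgen-induced list, had 0.98 as the mean of its probes and did not pass either (limma adjusted p = 0.126). Its probes differed, and 1 of them lay below 0 on all 4 arrays. At an unadjusted p under 0.05 there were 4 of the 7, against 6.34% of all genes: MSMB and TMEFF2 with values above 0, and FOLH1 and STEAP2 with values below 0. In all, 5 of the 7 genes had a mean below 0, and their median was −0.27 against 0.00 over all genes.

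TMEFF2 had 0.20 and 0.44 in the 2 orientations of experiment 1 with R1881 and 0.37 and 0.36 in experiment 2. All 4 arrays were above 0, with a mean of 0.35 ± 0.03 (95% interval 0.12 to 0.57; adjusted p = 0.559). MSMB had 0.29 and 0.26 in experiment 1 and 0.36 and 0.29 in experiment 2, the narrowest set among the 7 genes. Its mean of 0.30 ± 0.04 was above 0 on 4 of 4 arrays (95% interval 0.16 to 0.45; adjusted p = 0.357). These are the 262nd and 352nd highest values of all genes.

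FOLH1 had −0.15 and −0.33 in experiment 1 with R1881 and −0.70 and −0.75 in experiment 2. It lay below 0 on 4 of 4 arrays, with the experiments further apart than the dyes, and its mean of −0.48 ± 0.34 (95% interval −0.81 to −0.15; adjusted p = 0.583) was the 28th lowest of all genes. STEAP1 had −0.08 and −0.39 in experiment 1 and −0.58 on both arrays of experiment 2, a mean of −0.41 ± 0.25 (adjusted p = 0.871). STEAP2 had −0.18 and −0.19 in experiment 1 and −0.29 and −0.43 in experiment 2, a mean of −0.27 ± 0.12 (adjusted p = 0.656). ACP3 had −0.37 and −0.56 in experiment 1 and −0.28 and −0.29 in experiment 2, a mean of −0.37 ± 0.13 (adjusted p = 0.871). The arrays of these 4 genes all lay below 0, as 4 arrays of the same sign did for 24.8% of all genes in either direction. RLN1 had 0.12 and −0.20 in experiment 1 and −0.12 and −0.24 in experiment 2, with a mean of −0.11 ± 0.10 (95% interval −0.49 to 0.27; adjusted p = 0.9992). Quantile normalization gives all 12 arrays 1 common distribution, which widens the R1881 arrays and narrows the CHX arrays. With CHX it moved ACP3 to −2.38 and TMEFF2 to −2.42. With R1881 alone TMEFF2 then rose (0.96, limma adjusted p = 0.0386), MSMB rose (0.87, adjusted p = 0.00529) and STEAP2 fell (−0.67, adjusted p = 0.0436). All other alternatives tried left the 7 genes uncalled with R1881 alone.

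With CHX plus R1881 the same 6 genes fell as with CHX alone, and MSMB again did not pass. These comparisons share their control and, in part, the same agent, so the second is no independent test of the first. Over all genes 16.6% fell, and a called fall of more than 1 log2 unit was met by 5 of the 7 genes and by 3.24% of all. RLN1 fell by 3.15 ± 0.46 (limma adjusted p = 0.000163), ACP3 fell by 2.90 ± 0.25 (adjusted p = 0.000375) and TMEFF2 fell by 2.67 ± 0.21 (adjusted p = 9.0e-05). STEAP1 had −2.04 ± 0.44 (adjusted p = 0.00150), STEAP2 −1.01 ± 0.09 (adjusted p = 0.000635) and FOLH1 −0.53 ± 0.04 (adjusted p = 0.0265). Among these, RLN1 had −3.50 and −3.45 in experiment 1, but −3.51 and −2.14 in experiment 2. Its array with the treated RNA in Cy5 of experiment 2 thus stood apart from the other 3. RLN2 had −2.64, −2.52, −2.25 and −2.39 on the same 4 arrays, with no such gap. STEAP1 on that array had −1.27, again above its other 3 values of −2.20, −2.50 and −2.18. MSMB had 0.00, −0.18, 0.15 and −0.15, a mean of −0.04 ± 0.06 (adjusted p = 0.625). The call of FOLH1 was lost without experiment 1 (−0.55, adjusted p = 0.138) or experiment 2 (−0.50, adjusted p = 0.146) of CHX plus R1881, where fewer samples were fitted and the value stayed near −0.53. It was also lost after quantile normalization (−0.43, adjusted p = 0.339), from the arrays with the treated RNA in Cy3 alone (−0.43, adjusted p = 0.0815) and with 1 of its 2 probes (−0.43, adjusted p = 0.0683).

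The study's question of direct androgen targets rests on whether R1881 still acts when protein synthesis is blocked. CHX plus R1881 minus CHX, in which the control cancels from the estimate, gives the R1881 response in the presence of CHX. Values per experiment and SDs of this response, and of the differences below, subtract same-numbered experiments, whereas the fit does not pair them. The fit treats the ratios as independent, so its intervals and p-values do not allow for the shared control. Deviations of same-numbered experiments of CHX and of CHX plus R1881 correlated at 0.564 over all genes. With a positive correlation the fitted spread of this response is on average too wide, so a missing call does not show a missing response. None of the 7 genes passed here, nor did any of the 14532 genes in limma (0.0%; 0 to 2 genes in the alternatives). At an unadjusted p under 0.05 there were 3 of the 7, RLN1, STEAP2 and TMEFF2, all with values above 0, against 1.27% of all genes.

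TMEFF2 had 0.29 in experiment 1 and 0.41 in experiment 2, and the direct arrays (both agents against CHX) gave 0.33 and 0.29. Over all probes the direct arrays correlated at −0.04 with each other, so close values on them for a single gene carry little weight. Its mean of 0.35 ± 0.09 (95% interval 0.03 to 0.67; adjusted p = 0.9999) lay beside the 0.35 measured without CHX. The difference of the responses, without minus with CHX, was −0.00, with a 95% interval from −0.40 to 0.39. That interval is wider than the response itself, so these data do not show whether CHX left the response as it was. After quantile normalization the difference was 0.72 (adjusted p = 0.585), with 0.96 without CHX (adjusted p = 0.0386) and 0.24 in its presence.

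STEAP2 had 0.19 and 0.56 in the presence of CHX, and 0.21 and 0.19 on the direct arrays, all above 0, while its 4 arrays with R1881 alone were all below 0. The mean in the presence of CHX was 0.37 ± 0.27 (95% interval 0.07 to 0.68), and the difference of the responses was −0.64 (95% interval −1.02 to −0.27; limma unadjusted p = 0.00621, adjusted p = 0.9996). Both of its probes had this pattern, with −0.32 and −0.22 without CHX and 0.38 and 0.36 with it. The probes share arrays and RNA, so they are not separate measurements of the response. With CHX plus R1881 against control, STEAP2 had −1.09 and −1.06 in experiment 1, but −0.77 and −1.13 in experiment 2. That gap of 0.36 between the dyes is nearly as large as the mean response, and it enters the 0.56 of experiment 2. MSMB had −0.09 and 0.05 in the presence of CHX and 0.09 and −0.04 on the direct arrays, values on both sides of 0 (mean −0.02; 95% interval −0.22 to 0.18). Its difference was 0.32 (95% interval 0.07 to 0.57; unadjusted p = 0.0198, adjusted p = 0.9996).

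RLN1 had 0.39 and 0.98 in the presence of CHX, a mean of 0.69 ± 0.42 (95% interval 0.15 to 1.22; adjusted p = 0.9999), but 0.35 and 0.13 on the direct arrays. Without the array that stood apart, an alternative chosen after its value was seen, the mean was 0.34. The difference for RLN1 was −0.79 (limma unadjusted p = 0.0254, adjusted p = 0.9996). It was −0.45 without that array (unadjusted p = 0.00833, adjusted p = 0.9999) and −0.47 without experiment 2 of CHX plus R1881 (unadjusted p = 0.0191, adjusted p = 0.919). FOLH1, with −0.48 under R1881 alone, had 0.02 in the presence of CHX (95% interval −0.45 to 0.48) and 0.03 and −0.03 on the direct arrays. ACP3 had −0.00 (95% interval −0.74 to 0.73), with −0.05 and −0.06 on the direct arrays, and STEAP1 had 0.17 (95% interval −0.63 to 0.98), with −0.04 and −0.24. The differences for FOLH1, ACP3 and STEAP1 were −0.50, −0.37 and −0.58, each with a 95% interval that includes 0. In the test of the difference, 3 of the 7 genes, STEAP2, MSMB and RLN1, had an unadjusted p under 0.05, as 2.45% of all genes did, and none of all genes passed after adjustment in limma.

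**Figure D3:**
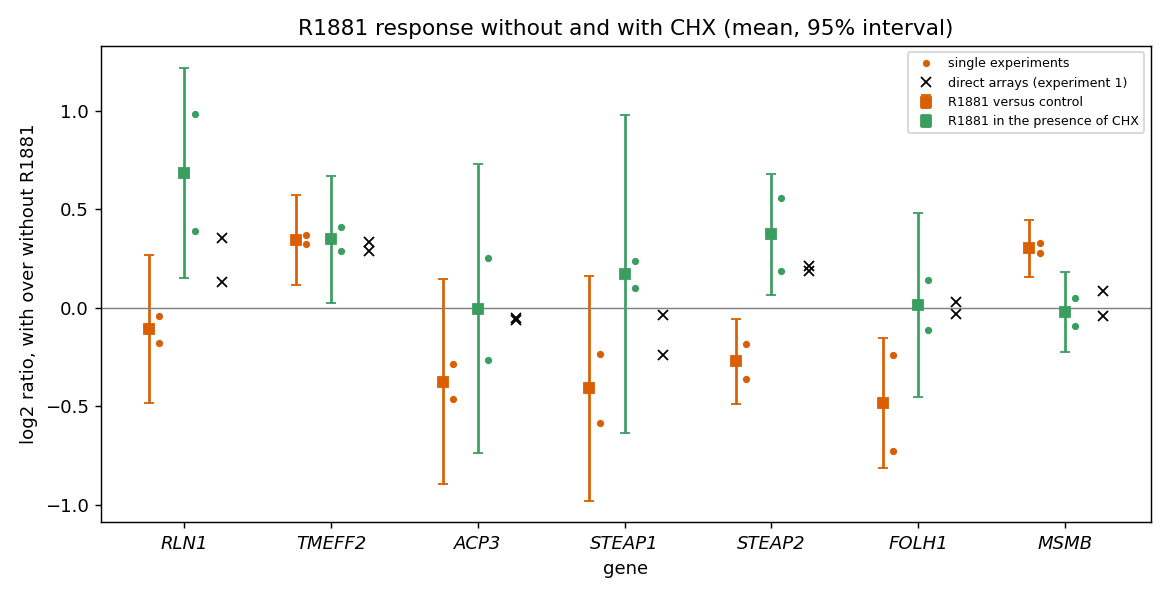
Log2 ratio with over without R1881 (vertical axis) for the 7 genes, measured without CHX and in the presence of CHX. Squares and bars are means with 95% intervals from limma, dots the 2 experiments, and crosses the 2 direct arrays. In the presence of CHX each dot subtracts same-numbered experiments, which the intervals do not pair. The direct arrays are marked as experiment 1, although their titles give no experiment number. TMEFF2 lies at 0.35 in both settings, while STEAP2 lies at −0.27 without and 0.37 with CHX.

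Relatives of the 7 genes moved unevenly with CHX. Among 10 other relaxin peptides and receptors, RLN2 fell by 2.61 (limma adjusted p = 6.43e-05), INSL6 fell by 0.42 (adjusted p = 0.00530) and INSL5 fell by 0.29 (adjusted p = 0.0262), with a median of −0.06 and no rise. Of 5 relatives of FOLH1, TFRC, the transferrin receptor that shares its fold with FOLH1, fell by 2.84 (adjusted p = 6.43e-05) and TFR2 fell by 0.37 (adjusted p = 0.00915), with a median of −0.20. STEAP3, a ferrireductase of the STEAP family, fell by 1.07 (adjusted p = 0.00184), while STEAP4 had 0.03 (adjusted p = 0.826). Of 5 other acid phosphatases, ACP1, a cytosolic tyrosine phosphatase, rose by 0.98 (adjusted p = 0.00277) and none fell. TMEFF1, the relative of TMEFF2, had 0.02. With R1881 alone no member of these families passed.

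Among 36 other prostate secreted and surface genes, 11 fell and 2 rose with CHX, with a median of −0.16, while 17.5% of all genes fell and 20.5% rose. By the smallest p, MME (neprilysin, a surface peptidase) fell by 2.21 ± 0.14 and KLK3 (prostate-specific antigen) fell by 1.54 ± 0.19. PRAC1 fell by 1.36 ± 0.03 and TSPAN13 (a tetraspanin) fell by 1.19 ± 0.04. Each of these falls had a limma adjusted p under 0.05. PRAC1 is a prostate-enriched nuclear protein, so the list does not hold secreted and surface products alone. KLK4 (another kallikrein) rose by 1.64 ± 0.50 and DPP4 (a surface peptidase) by 1.02 ± 0.01. With CHX plus R1881, 11 of the 36 fell and 4 rose (median −0.13), where 16.6% of all genes fell and 20.8% rose. With R1881 alone TMPRSS2, a surface serine protease, rose by 1.65 ± 0.17 (adjusted p = 0.0202) and no gene fell (median 0.04). Among 8 transcription factors of the luminal prostate, 3 fell and 1 rose with CHX, a list too short to set against the 17.5% and 20.5% of all genes.

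**Figure D4:**
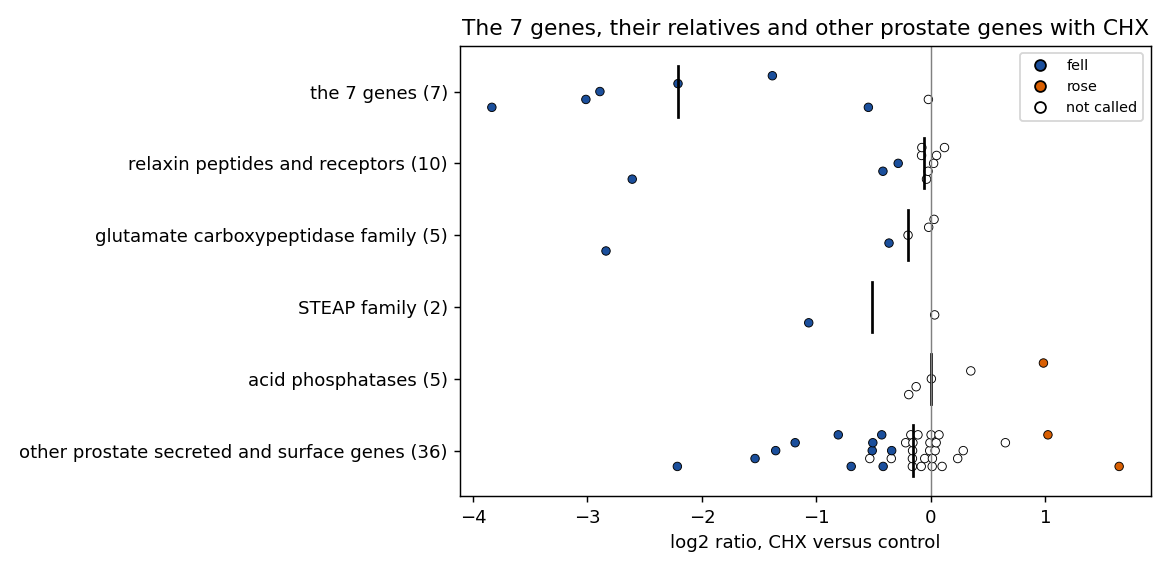
Log2 ratio of CHX over control (horizontal axis) for the 7 genes, 4 families of relatives without them, and 36 other prostate secreted and surface genes. Each point is a gene, its colour the limma call, the vertical bars are medians, and numbers in brackets are genes measured. The median of the 7 genes is −2.21 and that of the 36 others −0.16.

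Markers of luminal epithelium did not move as one with CHX: of 5 measured, HOXB13, a prostate homeobox factor, fell by 1.69 (limma adjusted p = 0.000567), while the keratins KRT8 and KRT18 had −0.10 and 0.13 and were not called. Of 4 basal markers 1 rose, of 5 stromal markers 1 rose and 2 fell, of 4 neuroendocrine and 3 endothelial markers 1 each fell, and of 4 leukocyte markers none was called. With 17.5% of all genes falling and 20.5% rising, 1 or 2 calls in lists this short are no result about those cell types. The stromal marker that rose was VIM, an intermediate filament gene, by 2.97. With R1881 alone none of these markers was called. The part of such shifts in the results above was not tested.

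By Euclidean distance over the 6 experiment means, the genes nearest to RLN1 were ADAM2 (1.30) and RPL4 (1.35), and those nearest to ACP3 were ADAM2 (0.40) and TUBA1A (0.40). For TMEFF2 they were STMN1 (0.48) and TFRC (0.59), for STEAP1 UBB (0.47) and BTD (0.55), for STEAP2 NENF (0.24) and ACY3 (0.29), for FOLH1 SELENOT (0.25) and SGSM2 (0.26), and for MSMB FAN1 (0.12) and MYH13 (0.17). No member was among the 2 genes nearest to another member. The closest pair in rank was TMEFF2 as seen from RLN1, 4th among all genes at a distance of 1.52.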

How the data were processed

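Each two-colour array gave 1 value per probe. The deposited values are log ratios, taken as log2; the authors' image analysis, background correction and normalization are not given in the sources used here, and array medians lay near 0. Spot brightness is unknown, so dim probes could not be set apart, and the number of arrays limits the precision. All values were multiplied by −1. Of the probes, 17711 were named, 14721 through their accession in a RefSeq table and the others through the platform's symbol, updated where older, and probes of a gene were averaged. The arrays of a dye swap share their RNA extracts and count as 1 replicate, so n = 2 experiments. The 6 means were fitted in limma 3.58.1 (R 4.3.3), 1 term per treatment, with a pooled spread on 3 residual and 2.57 prior degrees of freedom. It treats ratios that share a control as independent. Calls used a Benjamini-Hochberg adjusted p under 0.05 over 14532 genes. The fit was tested on simulated data with independent noise, for CHX versus control only. That test covers neither ratios that share a control nor the R1881 comparisons. Alternatives were a replicate block, each experiment left out, quantile normalization, median centring, single dyes, a random block over 12 arrays, single probes and the direct arrays added. The named genes comprise the 7 members, the reference genes KLK3 and TMPRSS2, up to 4 called genes per list by p, and the 2 nearest genes of each member. Members and lists were chosen with earlier results of these data known. Genes named beyond the rule (STEAP4, TMEFF1, the neighbours of RLN1, the rises of KLK4 and DPP4, and the markers) were chosen after their values were seen.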

Additional observations from a re-analysis of the deposited data

Results flagged for a closer look

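RLN1 in CHX plus R1881 versus control had 1 array far from the other 3: experiment 2 with the treated RNA in Cy5 gave −2.14, while the lowest of the 4 gave −3.51, and the gap to the nearest array was 0.963 of the whole range, above Dixon's critical value. Arrays of a dye swap are not independent, and chance alone sets aside about 5% of such sets; 1 of the 21 sets of 4 arrays (7 genes in 3 comparisons) was set aside here. Without that array RLN1 fell by 3.49 on the log2 scale (limma adjusted p under 0.05).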

How the results depend on the processing

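The 7 genes in 5 comparisons were recomputed in 18 settings in all, which gave 496 values. Not every setting covers every gene and comparison: single probes, for example, cover only FOLH1 and STEAP2. Of the values, 456 kept their direction and side of the threshold. In many of them the direction could not change. The block settings, and leaving out an experiment of a treatment outside the comparison, alter the spread but return the same estimate. The number of the 7 genes called stayed at 6 or 5 in both CHX comparisons. It was 3 with R1881 versus control after quantile normalization and 0 in every other setting of that comparison. FOLH1 accounts for all 8 values that lost a call. With the replicate block, 6 genes were called with CHX and 0 with R1881, and no call changed. Deviations of same-numbered experiments correlated at 0.292, 0.166 and 0.564 between treatments, which share a control. With 2 experiments the main fit did not take the numbers as pairs. The values per experiment in the presence of CHX, their SDs and those of the differences do subtract same-numbered experiments. Over all genes R1881 calls ranged from 0 to 744 and CHX calls from 3419 to 6957 (1 and 5519 as reported); those of CHX plus R1881 ranged from 3402 to 6891 (5443).

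Signs turned for 29 values, none of them called in any setting. From the treated RNA in Cy3 alone RLN1 had 0.0035 with R1881, MSMB 0.139 with CHX and 0.079 with CHX plus R1881, and in the presence of CHX ACP3 had 0.0484 and FOLH1 −0.0276. From Cy5 alone MSMB had 0.018 in the presence of CHX and the TMEFF2 difference was 0.11. Adding the direct arrays gave MSMB 0.0001 in the presence of CHX and the TMEFF2 difference 0.016, and quantile normalization gave the latter 0.72. The FOLH1 probe that kept its call had −0.0462 in the presence of CHX. Without the array of CHX plus R1881 set aside above, an alternative chosen after seeing the data, MSMB had 0.0328 against control and 0.0545 in the presence of CHX, STEAP1 had −0.0582 there, and the TMEFF2 difference was 0.0106. Leaving out each experiment in turn gave, in the presence of CHX, −0.44 to 0.43 for ACP3, −0.14 to 0.17 for FOLH1, −0.21 to 0.55 for STEAP1 and −0.0669 to 0.0249 for MSMB. It gave differences of −0.80 to 0.0637 for ACP3 and −0.15 to 0.15 for TMEFF2, and for MSMB −0.0472 to 0.0037 with CHX and −0.0887 to 0.0031 with CHX plus R1881. Where a sign turned, the cause was not tested.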
